A study of Mus musculus with 18 samples.

Results

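Of the genes measured by RNA-seq in this series, 10 that encode Toll-like receptors, *Tlr1* to *Tlr9* and *Tlr13*, were examined, without *Tlr11* and *Tlr12*; they were taken by name, not by their values, from 20310 gene loci in a table of developmental stages and from 20495 rows in a table of reprogrammed fibroblasts, and all 10 were found in both. The stages come from a mouse ESC line of strain 129 that carries a GFP reporter of Brachyury, and they are ESC, mesoderm (MES, Bry:GFP+ FLK1-), hemangioblast (HB, Bry:GFP+ FLK1+), hematopoietic progenitors (HP, CD41+) and macrophages (MAC), which were obtained by terminal differentiation of the CD41+ cells and sorted by CD11b; each has 2 replicates, which the authors pooled into 1 value per stage. The fibroblasts are MEFs of strain 129 from embryonic day 14.5, left untreated (uFIB) or given the factors Tal1 and Lmo2 (SL), Fli1, Gata2 and Lmo2 (FGL) or all 4 of them (SFGL), with 1 library for each treatment at day 12 and at day 21. Both wild-type MEFs and iTal1-2A-GFP MEFs, which carry rtTA and a doxycycline-inducible Tal1, were used in these experiments, and the labels do not say which MEFs went into which library. ESCs were grown on MEFs, so that the starting population can hold feeder cells. All values are FPKM, the number of fragments per length of transcript and per number of mapped reads, which corrects for gene length and so allows levels of different genes to be set side by side within a table, but the tables were normalized separately.

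Toll-like receptors are membrane proteins that recognize molecules typical of microbes. TLR2, with TLR1 or TLR6 as a partner, binds lipoproteins, TLR4 binds lipopolysaccharide and TLR5 binds flagellin at the cell surface, whereas TLR3, TLR7, TLR8, TLR9 and TLR13 sample nucleic acids in endosomes, TLR3 double-stranded RNA, TLR9 DNA with unmethylated CpG and TLR13 bacterial ribosomal RNA. Binding recruits the adaptors MyD88 or TRIF, which act through IRAK and TRAF proteins on NF-kB and interferon regulatory factors and so induce cytokines, and macrophages are among the cells best known for this response.

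The stage columns held genes that mark their cells: *Pou5f1* stood at 383 FPKM in ESC, *T* at 142 in MES, *Kdr* at 77.6 in HB, *Itga2b* (CD41) at 62.5 in HP and *Csf1r* at 234 in MAC. In MAC, some marker genes of other blood cells were also present, *S100a8* and *S100a9* at 39.1 and 13.7 FPKM and *Cpa3* at 18.7. The other neutrophil genes of the list, *Elane* and *Mpo*, were at 0.0306 and 0.584. The other mast cell genes, *Mcpt4* and *Ms4a2*, were at 0 and 0.193, and the 3 B cell markers together reached 0.0326. The values of MAC added up to 381686 FPKM over all loci, against 180554 to 201844 in the other stages, and over 10817 genes (those whose stage values average 1 FPKM or more) MAC differed from HP by a median of 0.36 on the log2(FPKM + 1) scale in the values of the table and by -0.21 once the stages had been brought to the same upper quartile. Changes from HP to MAC on that scale are therefore given relative to the median of the unscaled values. The number of reads behind a stage value is not known from the table.

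The sequences around the transcription starts are shown for 4 genes that behave differently in what follows: *Tlr13*, the highest in MAC, *Tlr2*, the highest before MAC, *Tlr3*, the only member that was lower in reprogrammed than in untreated MEFs by the test used, and *Tlr5*, which stayed under 1 FPKM in every stage. They are RefSeq windows on GRCm38.p6, from 250 bases before the start to 50 after it, and such windows were at hand for 8 of the 10 genes, 10 windows in all, since *Tlr1* and *Tlr6* have 2 each. *Tlr4* and *Tlr7* had no window and were not searched. Capitals mark matches, on either strand, to any of 8 short motifs. They are GAGGAA for PU.1, TTGCNNAA for C/EBP, TGANTCA for AP-1, TGTGGT for RUNX, TATAAA for the TATA box and GGGCGG for the GC box, in which N stands for any base, and besides these the motif of NF-kB, in which GGG and CC stand 5 bases apart, and that of IRF, in which GAAA is repeated after 2 bases of any kind. Overlapping or adjacent matches run together. Each window is given 5′ to 3′ on the strand of its gene.
Tlr13, chrX:106143025-106143324, plus strand: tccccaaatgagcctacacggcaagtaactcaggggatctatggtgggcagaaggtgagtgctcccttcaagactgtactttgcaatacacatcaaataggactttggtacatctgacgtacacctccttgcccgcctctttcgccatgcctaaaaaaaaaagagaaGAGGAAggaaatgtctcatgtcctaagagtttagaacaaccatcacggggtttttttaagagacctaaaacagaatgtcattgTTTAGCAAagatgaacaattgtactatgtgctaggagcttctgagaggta
Tlr2, chr3:83841559-83841858, minus strand: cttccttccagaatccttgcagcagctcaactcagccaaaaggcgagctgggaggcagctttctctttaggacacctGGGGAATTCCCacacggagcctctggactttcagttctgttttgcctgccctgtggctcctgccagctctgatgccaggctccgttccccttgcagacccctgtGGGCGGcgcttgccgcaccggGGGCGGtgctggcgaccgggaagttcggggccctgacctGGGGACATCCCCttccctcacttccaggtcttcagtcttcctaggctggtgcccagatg
Tlr3, chr8:45410331-45410630, minus strand: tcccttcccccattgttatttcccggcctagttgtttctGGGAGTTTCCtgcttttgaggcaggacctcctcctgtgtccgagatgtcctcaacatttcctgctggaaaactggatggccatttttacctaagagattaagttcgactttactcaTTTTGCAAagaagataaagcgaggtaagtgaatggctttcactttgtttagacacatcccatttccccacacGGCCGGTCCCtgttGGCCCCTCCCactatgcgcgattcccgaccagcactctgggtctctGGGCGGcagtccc
Tlr5, chr1:182954538-182954837, plus strand: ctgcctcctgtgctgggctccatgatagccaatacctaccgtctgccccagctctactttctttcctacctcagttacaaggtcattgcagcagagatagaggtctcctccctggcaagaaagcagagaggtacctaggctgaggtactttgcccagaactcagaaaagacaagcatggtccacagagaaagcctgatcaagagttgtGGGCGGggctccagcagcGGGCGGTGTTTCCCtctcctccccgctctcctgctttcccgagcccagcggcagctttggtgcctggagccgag

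Counted from 0 at the first transcribed base, the *Tlr13* window held a PU.1 match at -83 and a C/EBP match at 0, and it held no match to the NF-kB or GC box letters. The *Tlr2* window held GC boxes at -69 and -48 and NF-kB matches that began at -173 and -9, each a run of overlapping matches; the *Tlr3* window held NF-kB matches at -211, -23 and -9, a C/EBP match at -95 and a GC box at 37; and that of *Tlr5* held GC boxes at -42 and -24 and an NF-kB match at -20. Over the members' 10 windows, PU.1, C/EBP and NF-kB letters were each found in 4, and over all 32817 windows of the table in 28.3%, 10.8% and 50.8%. PU.1 letters were found for *Tlr1*, *Tlr8*, *Tlr9* and *Tlr13*, and C/EBP letters for *Tlr3*, *Tlr6*, *Tlr8* and *Tlr13*. The GC box, found in 35.6% of all windows, was found in 3 of the 10, those of *Tlr2*, *Tlr3* and *Tlr5*. These were also the 3 highest members in ESC, which was noticed after the values were seen, but only *Tlr2* reached 1 FPKM there. AP-1 letters were found for *Tlr9*, and IRF and RUNX letters for *Tlr6*, in 1 window each, against 7.81%, 3.43% and 16.8% of all windows, and TATAAA for *Tlr6* and *Tlr8*, in 2 windows against 13.6%. The *Tlr9* window held no CpG and that of *Tlr8* held 1, whereas *Tlr2* and *Tlr3* held 11 and 10, and the median of all windows was 7. A match describes the letters of the window and not a bound site.

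The receptors of the cell surface were led by *Tlr2* and *Tlr4*, which were the only members above 1 FPKM before MAC and together made up most of the surface receptor level in MAC. *Tlr2* (chr3:83836272-83841608) had 1.26 FPKM in ESC, held 1.38 in MES and 1.04 in HB, and stood at 2.95 in HP and 44.5 in MAC, the only member above 1 FPKM in all stages. *Tlr4* (chr4:66827811-66842796) stood at 0.107, 0.0148, 0.0710, 1.84 and 49.1 FPKM in the same order. From HP to MAC the level of *Tlr2* was thus 15.1-fold and that of *Tlr4* 26.7-fold higher, or 3.17 and 3.78 above the median change on the log2 scale. After scaling to the same upper quartile they were 9.05-fold and 16.0-fold higher. *Tlr1* (chr5:64924680-64933558), a partner of *Tlr2*, was at or near 0 from ESC to HB, at 0.0989 FPKM in HP and at 7.24 in MAC. It has 2 transcription starts in the table, and in MAC they stood at 3.14 and 4.10 FPKM, whereas in HP the whole value came from the first of them. *Tlr6* (chr5:64953095-64960034), the other partner and the neighbour of *Tlr1* on the chromosome, never passed 0.0223 FPKM before MAC and stood at 1.17 there, so that among the partners of TLR2 *Tlr1* was the higher. *Tlr1* and *Tlr6* share sequence: 13.6% of the 50-base stretches of the *Tlr1* transcripts and 12.3% of those of *Tlr6* occur in the other gene, and since the authors kept only reads with a single position, both values can be too low. *Tlr5* (chr1:182954788-182976044) was the exception, with 0.227 FPKM in ESC, then 0.0354 in MES and 0.00831 in HB, and with 0.0961 and 0.0931 in HP and MAC. Its highest value was thus that of ESC, but all 5 lay under 1 FPKM. The 5 fibroblast markers of the list used here added up to 5.23, 11.6, 22.2, 37.2 and 2.18 FPKM from ESC to MAC; the part of feeder cells in the *Tlr2*, *Tlr3* and *Tlr5* values of the early stages was not tested.

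**Figure D1:**
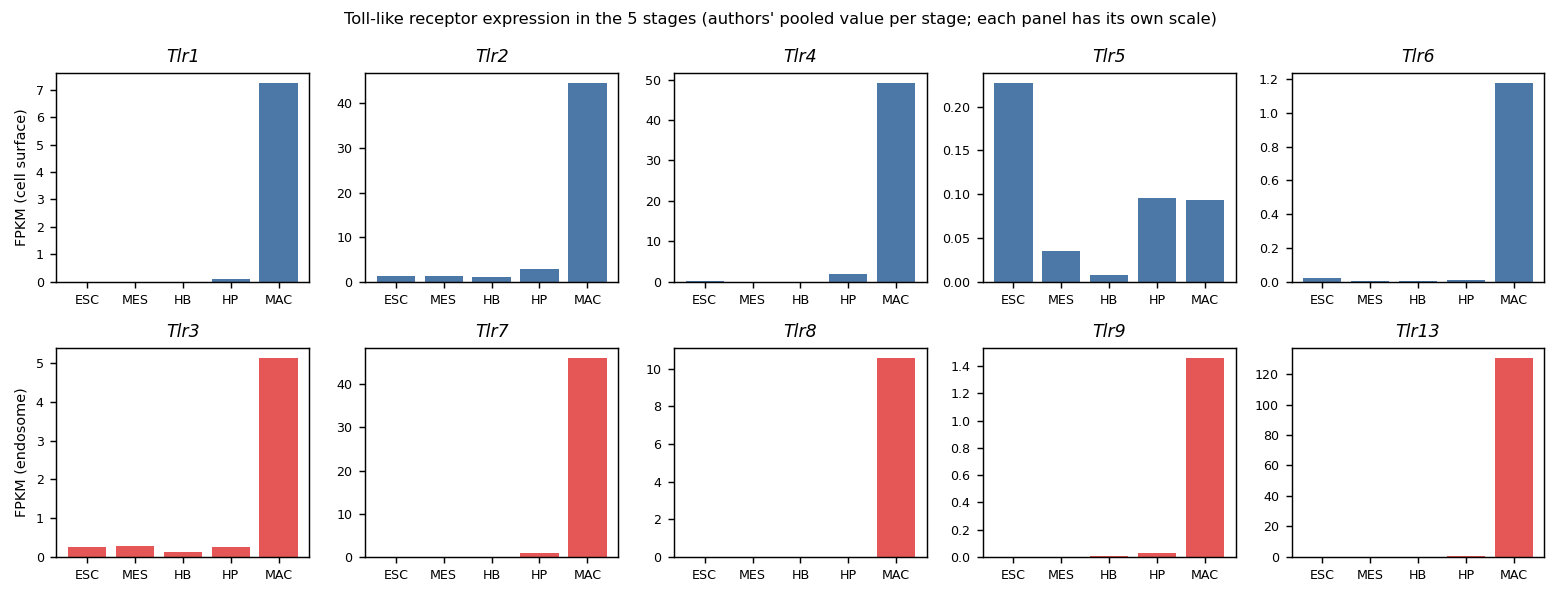
FPKM of each of the 10 receptor genes (y axis, a separate scale in every panel, starting at 0) in ESC, MES, HB, HP and MAC (x axis), with the authors' pooled value per stage as a bar; the upper row holds receptors of the cell surface and the lower row those of the endosome. In 9 panels the bar of MAC is far above all others, from 1.17 FPKM for *Tlr6* to 131 for *Tlr13*, and only the *Tlr5* panel, whose axis ends below 0.3, has its highest bar in ESC.

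The receptors of nucleic acids were nearly absent before the macrophage stage and held the highest member in it. *Tlr13* (chrX:106143275-106160493) was at 0.00601 FPKM in ESC, at 0.00212 in MES, and passed from 0.0148 in HB to 0.532 in HP and 131 in MAC, 246-fold above HP and 6.07 above the median change on the log2 scale. After scaling to the same upper quartile it stood 147-fold above HP. It ranked 443 among all 20310 loci in MAC, whereas *Tlr4* and *Tlr7*, the next members, ranked 1428 and 1525. *Tlr7* (chrX:167304931-167330528), a receptor of single-stranded RNA, stood at 0.0598, 0.0310, 0.0570, 0.908 and 46.1 FPKM from ESC to MAC. Its neighbour *Tlr8* (chrX:167242732-167263788) was listed at 0 in ESC, MES and HB, at 0.00962 in HP and at 10.6 in MAC. In HP, then, *Tlr7* was near 1 FPKM while *Tlr8* next to it was hardly detected, and in MAC the level of *Tlr7* was still the higher. *Tlr9* (chr9:106222598-106226876) was listed at 0 in ESC and MES, at 0.00458 in HB and at 0.0303 in HP, and reached 1.46 in MAC, close to *Tlr6* at the bottom of the members that were higher there. *Tlr3* (chr8:45395665-45410539) differed from the other endosomal receptors in that it had a low level in every stage, 0.262 FPKM in ESC, 0.270 in MES, then 0.123 and 0.242 in HB and HP, before 5.13 in MAC. The antisense gene *Gm45542* shares 381 exon bases with *Tlr3*, 5.30% of the 50-base stretches of its transcripts, and whether the counting used strand is not given in the sources used here.

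Of the 10 members, 9 were at least 2-fold higher in MAC than in HP with at least 1 FPKM in 1 of both stages, all but *Tlr5*, where 20.3% of all 20310 loci met that rule, and 0 were lower, where 9.01% of loci were. After scaling to the same upper quartile, 11.8% of loci were higher and 15.96% lower, and 7 members met the rule, since *Tlr6* and *Tlr9* then stood at 0.771 and 0.958 FPKM in MAC. The same 9 members met it at 4-fold. With 1 pooled value per stage, no test between stages was possible. One step earlier, from HB to HP, *Tlr2* and *Tlr4* were at least 2-fold higher, where 6.35% of loci were, and 0 members were lower, where 6.62% were. *Tlr7* and *Tlr13* were also higher in HP than in HB but under 1 FPKM in both. From ESC to MES, 0 members were higher or lower at this rule, where 5.88% and 6.25% of loci were, and likewise from MES to HB, where 2.04% and 3.17% were. Only *Tlr2* reached 1 FPKM in ESC, MES or HB, so no other member could be called at these steps, nor lower from HB to HP. In HP only *Tlr2* and *Tlr4* reached it, so no other member could be called lower in MAC.

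The 10 genes together added up to 1.95 FPKM in ESC, to 1.73 and 1.32 in MES and HB, and to 6.72 and 296 in HP and MAC, and the receptor with the largest share changed along the way. Since the values of MAC add up to more over all loci, the sum is also given as a share of all FPKM of the stage, 0.00361% in HP and 0.0775% in MAC. *Tlr2* made up 64.6%, 79.4% and 78.6% of the sum in ESC, MES and HB. In HP its share was 43.9%, with *Tlr4* at 27.4% and *Tlr7* at 13.5%. In MAC *Tlr13* made up 44.1%, followed by *Tlr4* at 16.6%, *Tlr7* at 15.6% and *Tlr2* at 15.0%. The receptors of the cell surface thus held 83.2% of the sum in ESC and 74.4% in HP, but 34.5% in MAC, and those of the endosome 16.8%, 25.6% and 65.5%. When each gene was weighted by log2(FPKM + 1) instead, *Tlr13* held 19.8% of the MAC sum.

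**Figure D2:**
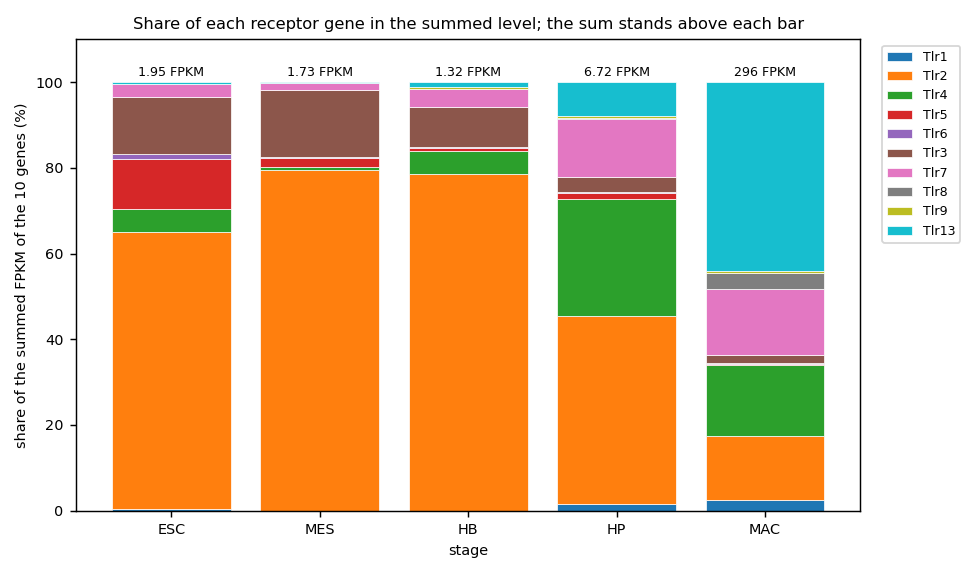
Share of each of the 10 genes in their summed FPKM (y axis, percent) in ESC, MES, HB, HP and MAC (x axis), with the sum in FPKM above each bar. *Tlr2* takes most of the bar from ESC to HB, *Tlr4* and *Tlr7* widen in HP, and *Tlr13* takes 44.1% of the MAC bar, whose sum is 296 FPKM.

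Most accessory proteins, adaptors and kinases that the receptors work with were at 1 FPKM or more in HP already, where most receptors were not. Over all loci, 9776 of 20310 were at that level in HP. Of 9 accessory proteins in the table, 7 were at least 2-fold higher in MAC and 0 lower, where 20.3% of all loci were higher, and after scaling to the same upper quartile, a choice made after the values were seen, 4 remained higher, *Cd14*, *Ly96*, *Cd180* and *Unc93b1*, where 11.8% of loci did. The median change of the list was 1.56 on the log2(FPKM + 1) scale, where that of the 10817 genes averaging 1 FPKM or more was 0.36 and that of all 20310 loci was 0. *Unc93b1*, the chaperone that brings endosomal receptors to their compartment, went from 4.20 FPKM in HP to 236 in MAC, and *Ly96* (MD-2), the part of the lipopolysaccharide receptor that holds the ligand, from 0.445 to 17.3. *Cnpy3* and *Slc15a4* had the smallest changes on the log2(FPKM + 1) scale of those with at least 1 FPKM, from 11.4 to 34.5 and from 7.95 to 23.6 FPKM. Of 5 adaptors, 4 were higher in MAC, and 2, *Pik3ap1* and *Ticam2*, after scaling, against the same shares of loci. *Pik3ap1* (BCAP) went from 4.37 to 65.0 FPKM, *Ticam2* (TRAM) from 1.15 to 5.65, *Myd88* from 10.4 to 31.1 and *Ticam1* (TRIF) from 1.80 to 3.65. The 4 adaptors named here, of the 5, were therefore already at 1 FPKM or more in HP, where *Tlr2* and *Tlr4* were the only receptors at that level. The adaptor *Tirap* was not analysed in the stages.

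Of 12 kinases and ligases, 6 were higher in MAC and 0 lower, where 20.3% and 9.01% of loci were, but after scaling 3 were higher, *Irak2*, *Irak4* and *Ikbke*, and 2 lower, *Tab2* and *Tab3*, where 11.8% and 15.96% of loci were. *Ikbke* went from 0.543 to 25.1 FPKM and *Irak2* from 1.70 to 21.3, whereas *Tab2* and *Tab3*, which couple TRAF6 to the kinase TAK1, stood at 18.3 and 3.16 in HP and at 15.2 and 2.42 in MAC. Of 8 NF-kB subunits and inhibitors, 6 were higher, and 4 after scaling. The inhibitor *Nfkbia* went from 6.66 to 47.0 FPKM and the subunit *Nfkb2* from 3.59 to 12.5, whereas *Nfkbib* stood at 3.78 and 3.91 and *Rela* at 5.62 and 8.86. Of 5 negative regulators, 4 were higher, and after scaling 2, with 1 lower, *Sigirr*. Their values were, for *Tnfaip3* (A20), an ubiquitin-editing enzyme, 1.94 FPKM in HP and 28.5 in MAC, for *Tollip* 15.1 and 47.9, for *Irak3* 0.443 and 1.25 and for *Sigirr* 2.10 and 1.47. Of 10 cytokines and enzymes that receptor signals induce, 4 were higher, *Il1a* with 0 and 11.5 FPKM, *Cxcl2* with 0.0700 and 11.0, *Il1b* with 0.261 and 9.62 and *Tnf* with 1.13 and 12.6. *Il6*, *Il10*, *Il12b*, *Ifnb1* and *Nos2* stayed under 1 FPKM in both stages, *Ptgs2* stood at 3.70 and 4.74, and the median change of this list, with its genes under 1 FPKM included, was 0.25.

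Among 10 receptors of other families that recognize microbes, 8 were higher in MAC, with *Clec7a* (Dectin-1) at 3.16 FPKM in HP and 1621 in MAC and *Nod1* at 0.316 and 10.2, while *Mb21d1* (cGAS) stood at 1.82 and 2.12 and *Tmem173* (STING) at 1.01 and 3.64. Of 6 members of the IL-1 receptor family, whose signals run through the same adaptor MyD88, 4 were higher, *Il1rl2* with 0.137 and 10.4 FPKM and the decoy receptor *Il1r2* with 0.383 and 8.71 among them, whereas *Il18rap* stood at 4.45 and 5.73 and *Il1rap* at 0.982 and 4.07. In the values of the table, no list had a gene that was at least 2-fold lower with at least 1 FPKM in HP or MAC, and scaling left the counts of the cytokines, the other families and the IL-1 receptor family at 4, 8 and 4. *Cd36*, *Tirap*, *Irak1*, *Traf3* and *Cyld* were not analysed here in the stages.

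**Figure D3:**
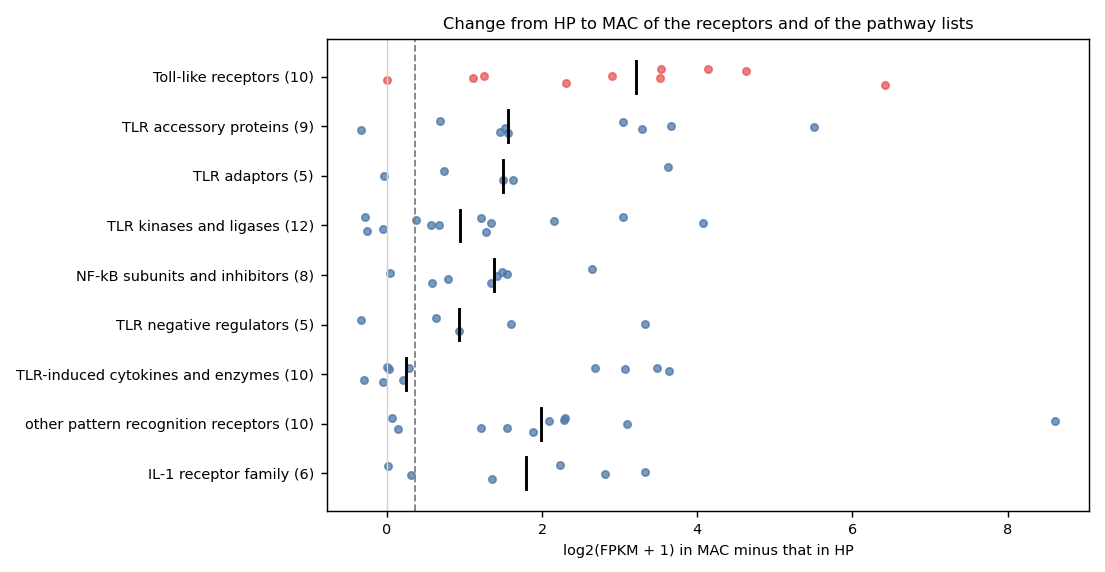
Difference in log2(FPKM + 1) between MAC and HP (x axis) for the 10 receptors (red points) and for the genes of 8 lists of pathway proteins (blue points), with the number of genes of each list in the table in parentheses; black bars are the median of a list and the dashed line is the median of the 10817 genes that average 1 FPKM or more, 0.36. The receptors reach from about 0 for *Tlr5* to 6.42 for *Tlr13*, and the median of the cytokine list, which holds genes under 1 FPKM, is 0.25.

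In the MEFs, the targeted genes were looked at first. *Tal1* stood at 62.0 and 58.0 FPKM in SL and SFGL at day 12 and at 347 and 119 at day 21, against 0.0414 and 0.415 in uFIB. In the libraries labelled FGL, *Lmo2* stood at 36.2 and 66.5 FPKM and *Gata2* at 21.9 and 35.1, well above uFIB, but *Tal1*, which is not among their factors, stood at 7.04 at day 12, and *Fli1*, which is, stood at 3.35 at day 21 where uFIB had 3.02. They are therefore called the libraries labelled FGL. In SL, which was not given Fli1 or Gata2, *Fli1* stood at 46.7 FPKM at day 12 and 34.4 at day 21 and *Gata2* at 68.8 and 62.6, against 41.2 and 27.8 and 110 and 132 in SFGL, so that *Fli1* was no lower in SL than in SFGL. The value of 1 read, read from the steps of low values in 1363 genes with a single transcript, gave relative depths of 0.582 to 1.57 with uFIB at day 12 as 1, and 70.1% to 78.6% of the low values of a library lay within 0.1 of a whole number of reads, so that read numbers given here are estimates.

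SL and SFGL libraries differed from uFIB in the markers of many cell types. The 5 fibroblast markers added up to 6331 and 5001 FPKM in uFIB at day 12 and day 21, 2173 and 1081 in SL and 1788 and 892 in SFGL. The 3 general leukocyte markers added up to 0.954 and 2.16 in uFIB, and to between 159 and 471 in SL and SFGL, the 4 neutrophil markers to 4.62 and 201 in uFIB, and to between 5104 and 22783 in SL and SFGL, and the 6 macrophage markers to 3.60 and 6.45 in uFIB and to between 103 and 220, of which *Sfpi1* (PU.1) alone made up 74.9% to 79.2%. The 3 mast cell markers added up to 0.446 and 0.599 in uFIB and to between 76.2 and 145, and the 4 markers of HP to 1.53 and 1.45 in uFIB and to between 95.9 and 213. Without *Sfpi1*, the other 5 macrophage markers added up to 3.56 and 5.73 FPKM in uFIB and to between 21.4 and 52.3 in SL and SFGL. Among them *Cd68* reached 30.1, *Mpeg1* 19.7 and *Emr1* 6.69 in SL or SFGL. *Csf1r*, a defining receptor of macrophages, reached no more than 1.92 FPKM in any library, and *Fcgr1* no more than 0.146. In a bulk library, a change in the number of cells of a type cannot be told apart from a change in RNA per cell.

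Among the surface receptors, *Tlr4* and *Tlr2* were expressed in the untreated MEFs and higher in SL and SFGL. *Tlr4* stood at 9.47 and 7.69 FPKM in uFIB at day 12 and day 21, at 20.5 and 11.2 in SL, at 17.4 and 11.8 in SFGL and at 11.5 and 7.25 in the libraries labelled FGL. *Tlr2* stood at 4.08 and 3.15 in uFIB, 17.8 and 8.95 in SL, 13.2 and 11.5 in SFGL and 4.94 and 2.46 in the libraries labelled FGL. For *Tlr2* the 4 values of SL and SFGL lay above the other 4, whereas for *Tlr4* the day 12 library labelled FGL, at 11.5, lay above the SL library of day 21. The share of all genes that separate the libraries as *Tlr2* did was not counted. *Tlr5*, the one member that stayed low in MAC, stood at 1.11 and 0.803 in uFIB, 1.25 and 1.53 in SL, 0.626 and 1.25 in SFGL and 1.01 and 0.838 in the libraries labelled FGL, and the treatments overlapped. *Tlr1* ranged from 0 in uFIB at day 12 to 0.615 in SFGL at day 12, and *Tlr6* from 0.0882 in SFGL to 0.637 in uFIB, both at day 21; these values rest on at most about 57 reads. At day 12 they ran in opposite directions, with *Tlr1* highest and *Tlr6* lowest in SL and SFGL. At day 21 the FPKM had the same order, but for the *Tlr6* value of the library labelled FGL, 0.194, which lay below that of SL. *Tlr1* then rested on only about 6 reads in uFIB, 6 in SL and 9 in SFGL, too few to give a direction. *Tlr6* rested on about 57, 11 and 4 in the same libraries.

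Of the endosomal receptors, *Tlr13* and *Tlr3* stood apart from each other. *Tlr13* stood at 0.0143 and 0.160 FPKM in uFIB, about 1 and 16 reads, at 9.12 and 3.07 in SL, about 986 and 128 reads, at 5.98 and 3.58 in SFGL and at 0.616 and 0 in the libraries labelled FGL. The 4 values of SL and SFGL lay above all others. The value of the day 12 library labelled FGL was 6.75% of that of SL at day 12, and in the same library *Tal1* stood at 11.3%, the leukocyte markers at 9.99%, the neutrophil markers at 9.38% and the macrophage markers at 11.2% of theirs; the part of such cells in its *Tlr13* value was not tested. *Tlr3* stood at 4.09 and 3.95 FPKM in uFIB, 3.69 and 3.92 in the libraries labelled FGL, 0.821 and 0.697 in SL and 0.723 and 0.546 in SFGL, 2 groups of 4 values that did not overlap, in the opposite direction to *Tlr13*. How common such a separation of the libraries was among all genes, in either direction, was not counted. *Tlr7* stood at 0.0770 and 0.0754 in uFIB and at 0.680 and 0.381 in SL and 0.244 and 0.298 in SFGL, so that the low values of these treatments lay above all others, but no library reached 1 FPKM. *Tlr8* was highest in uFIB and in the library labelled FGL of day 21, at 0.775 and 0.787, and at most 0.248 in the other 6. At day 12 it stood at 0.248 in SL and 0.195 in SFGL, above 0.129 in uFIB and 0.0165 in the library labelled FGL, so that like *Tlr7* it was higher in SL and SFGL than in uFIB, but at day 21 it was lower in them than in uFIB. *Tlr9* was listed at 0 in 7 libraries and at 0.0569, about 2 reads, in that labelled FGL of day 21.

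**Figure D4:**
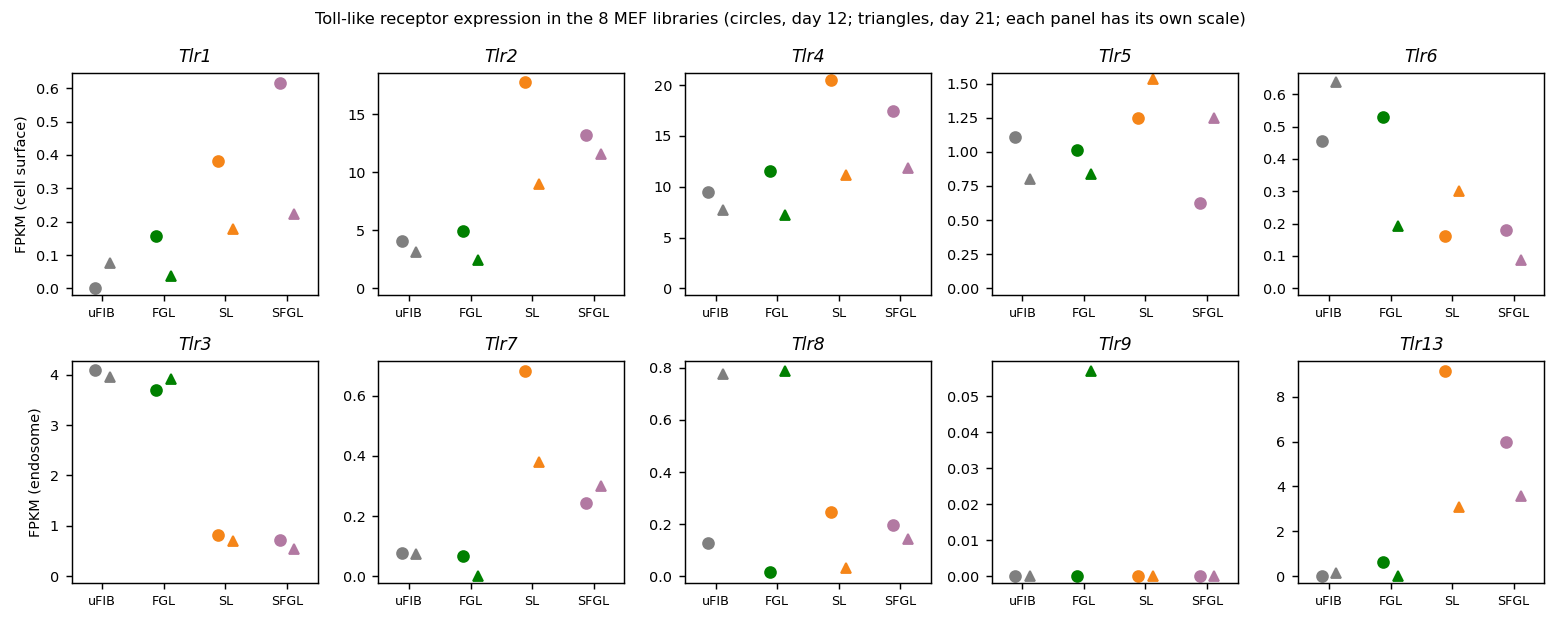
FPKM of each of the 10 receptor genes (y axis, a separate scale in every panel) in untreated MEFs (uFIB) and in MEFs labelled FGL, SL and SFGL (x axis), with circles for day 12 and triangles for day 21, 1 library per point. *Tlr2* and *Tlr13* are high and *Tlr3* is low in all 4 libraries of SL and SFGL, and *Tlr1*, *Tlr6*, *Tlr7*, *Tlr8* and *Tlr9* stay under 1 FPKM in all 8.

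To ask whether a treatment differed from uFIB on both days, limma was fitted to the 12521 genes with at least 1 FPKM in at least 2 of the 8 libraries, with treatment and day as terms. Of the 10 members, 5 passed this filter, *Tlr2*, *Tlr3*, *Tlr4*, *Tlr5* and *Tlr13*. *Tlr13* passed only through the libraries of SL and SFGL, and *Tlr3* only through those of uFIB and those labelled FGL. The differences of both from uFIB in the test thus follow in part from the filter. Each treatment has 2 libraries, 1 per day, and the days are its only repeat, so the error is the departure from a common effect on both days and not the spread between separate cultures, and the p-values can be too small. In SL, *Tlr13* was higher than in uFIB by 2.56 ± 0.35 (SE) on the log2(FPKM + 1) scale (limma adjusted p = 0.00302), *Tlr2* by 1.57 ± 0.21 (adjusted p = 0.00295) and *Tlr4* by 0.76 ± 0.15 (adjusted p = 0.00924), and *Tlr3* was lower, at -1.51 ± 0.13 (adjusted p = 0.00121). In SL, 25.3% of all genes tested were called higher and 27.0% lower, so that calls of this kind were common among all genes; they were fewer when 1 library was left out, 14.1% higher at the lowest (without SL of day 12) and 15.3% lower at the lowest (without uFIB of day 12). *Tlr5* differed by 0.29 (95% interval -0.24 to 0.82) and did not pass.

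In SFGL, *Tlr13* was higher by 2.38 ± 0.35 (adjusted p = 0.00289), *Tlr2* by 1.54 ± 0.21 (adjusted p = 0.00239) and *Tlr4* by 0.69 ± 0.15 (adjusted p = 0.0109), and *Tlr3* was lower, at -1.62 ± 0.13 (adjusted p = 0.000671), where 27.8% of genes were called higher and 30.9% lower, or at the lowest 19.3% and 21.0% with uFIB of day 12 left out. *Tlr5* differed by -0.03 (95% interval -0.56 to 0.50). The comparisons of SL and of SFGL share the uFIB libraries. The call of *Tlr4* was lost in SL without the uFIB or the SL library of day 12, with adjusted p of 0.0552 and 0.0624, and in SFGL without uFIB of day 12 or either SFGL library, with 0.0649, 0.0538 and 0.0647; the calls of *Tlr2*, *Tlr3* and *Tlr13* held in all 15 alternatives. The scale understates *Tlr13*, whose difference in SL was 4.97 with a pseudocount of 0.1. Without a filter on low values, *Tlr7* passed in SL, with 0.50 ± 0.09 (adjusted p = 0.0121), and *Tlr1* in SFGL, with 0.44 ± 0.12 (adjusted p = 0.0357).

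**Figure D5:**
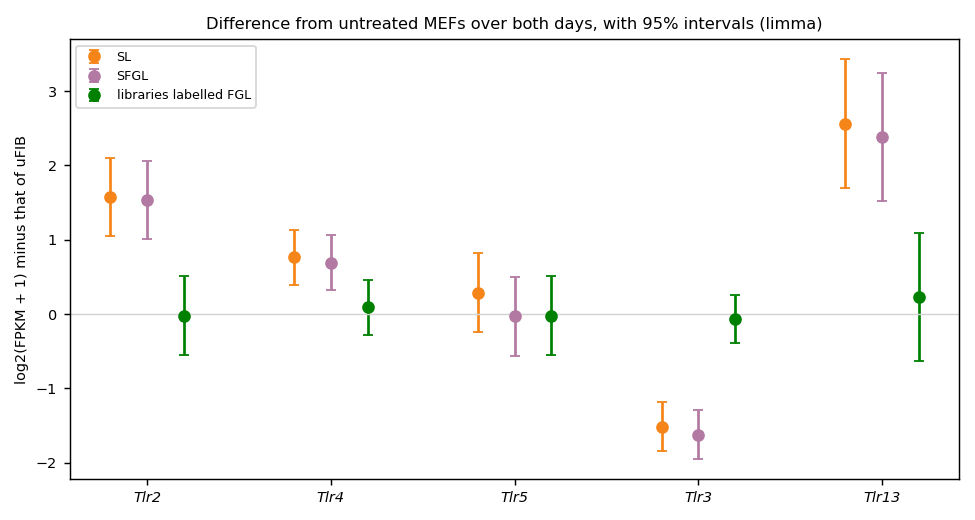
Difference in log2(FPKM + 1) from uFIB over both days (y axis) for the 5 members that were tested (x axis), in SL (orange), SFGL (purple) and the libraries labelled FGL (green); points are limma estimates and bars their 95% intervals. The intervals of *Tlr2*, *Tlr4* and *Tlr13* lie above 0 and those of *Tlr3* below 0 in SL and SFGL, and all 5 of the libraries labelled FGL include 0.

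In the libraries labelled FGL, 0 of the 5 members were called against uFIB, where 0.016% of genes were, 2 in all, and 482 had an unadjusted p under 0.05. The estimates ranged from -0.06 for *Tlr3* (95% interval -0.39 to 0.26) to 0.23 for *Tlr13* (-0.64 to 1.09). SFGL, which was given Fli1 and Gata2 besides Tal1 and Lmo2, was compared with SL, in which both genes were also far above uFIB, and 0 members were called, where 0.0% of genes were; 1082 of the 12521 genes had an unadjusted p under 0.05. The intervals of that difference were -0.56 to 0.49 for *Tlr2*, -0.44 to 0.30 for *Tlr4*, -0.43 to 0.22 for *Tlr3*, -1.05 to 0.68 for *Tlr13* and -0.85 to 0.21 for *Tlr5*, so that differences up to these limits could not be told from 0. Between day 21 and day 12, 0 members were called, where 2.46% of genes were, 142 higher and 166 lower, or 197 and 134 after scaling; these 308 calls fell to between 6 and 11 when any 1 library of SL, SFGL or FGL was left out. *Tlr4* came nearest, at -0.55 (95% interval -0.81 to -0.29, adjusted p = 0.0627), and *Tlr2* was at -0.54 (-0.91 to -0.17, adjusted p = 0.114); both were lower at day 21 in 4 of 4 treatments.

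The 10 genes added up to 19.4 and 17.3 FPKM in uFIB at day 12 and day 21, 22.5 and 15.5 in the libraries labelled FGL, 50.9 and 26.3 in SL and 39.2 and 29.5 in SFGL. *Tlr4* held the largest share in every library, from 40.2% to 51.1%. In SL and SFGL *Tlr2* followed, with 33.7% to 39.1%, and *Tlr13* held 11.6% to 17.9%, whereas in uFIB *Tlr3* held 21.1% and 22.8% and *Tlr13* 0.0737% and 0.925%. The receptor mix of SL and SFGL was thus unlike that of MAC in the other table, where *Tlr13* led and *Tlr7* held a share as large as that of *Tlr2*. In HP, *Tlr2* held 43.9%, *Tlr4* 27.4%, *Tlr7* 13.5% and *Tlr13* 7.92%. In uFIB at day 12 and day 21, *Tlr4* held 48.8% and 44.4% and *Tlr2* 21.0% and 18.2%. MAC was sorted, whereas fibroblast markers were still present in the bulk libraries of SL and SFGL. The part of each cell type in the mix was not tested.

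Of the pathway proteins tested, the adaptors, the negative regulators and the induced cytokines were mostly higher in SL and SFGL, the kinases and ligases were called higher in part, and the other lists had calls in both directions. Of the called genes named below, *Ticam2*, *Sigirr*, *Cxcl2*, *Aim2*, *Nlrp3* and *Il18r1* reached 1 FPKM only in SL and SFGL. *Pik3ap1*, *Tnf*, *Il1b* and *Il18rap* did so only there and in the day 12 library labelled FGL. None of these would have passed the filter of the test without SL and SFGL, so their differences follow in part from it. Over all genes tested, 25.3% were called higher and 27.0% lower in SL. In SL, 4 of 5 tested adaptors were called higher and 0 lower (limma, adjusted p under 0.05 over all genes, as for the members). *Pik3ap1* differed by 4.16 ± 0.42 and *Ticam2* by 1.16 ± 0.18, from values at or under 0.269 FPKM in uFIB, and *Tirap* and *Ticam1* by 0.64 ± 0.15 and 0.55 ± 0.12. *Myd88* stood between 16.5 and 24.0 FPKM in all 8 libraries. Of 8 tested accessory proteins, 2 were higher and 2 lower in SL: *Cd14*, the co-receptor of TLR4, at 2.59 ± 0.26 and *Unc93b1* at 0.98 ± 0.14, against *Lbp* at -1.03 ± 0.29 and *Cd36* at -3.29 ± 0.72. *Ly96*, which TLR4 needs, stood at 15.3 and 12.5 FPKM in uFIB and 10.7 and 13.7 in SL, with no call in SL, and was lower in SFGL, at -0.72 ± 0.17 (adjusted p = 0.0151).

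Of 14 kinases and ligases, 5 were higher and 0 lower in SL, where 25.3% and 27.0% of all genes tested were. Among the 5 were *Irak4* at 0.59 ± 0.18, *Traf3* at 0.39 ± 0.11, *Tab2* at 0.49 ± 0.11 and *Tab3* at 0.50 ± 0.12. The counts of the other lists stand against the same shares. Of 8 NF-kB subunits and inhibitors, 1 was higher, *Nfkbia*, at 1.25 ± 0.19, and 2 were lower, *Nfkb2* at -0.40 ± 0.10 and *Relb* at -0.49 ± 0.13. Of 6 negative regulators, 5 were higher and 0 lower. *Irak3* differed by 1.26 ± 0.17, *Tnfaip3* by 1.23 ± 0.14, *Sigirr* by 1.18 ± 0.23 and *Cyld* by 0.59 ± 0.13. Of the 10 cytokines and enzymes listed, 6 were tested, and 4 of these were higher and 0 lower: *Il1b* at 3.64 ± 0.90, *Tnf* at 3.15 ± 0.47, *Cxcl2* at 1.51 ± 0.31 and *Il6* at 1.38 ± 0.30. *Il6* was at 3.60 FPKM or more in all MEF libraries, and in the stages, whose table was normalized separately, it stayed under 1 in HP and MAC.

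Among 9 tested receptors of other families, 5 were higher and 3 lower in SL, where 25.3% and 27.0% of all genes tested were. Of the 5, *Aim2*, *Nlrp3*, *Clec7a* and *Clec4e* would not have passed the filter of the test without SL and SFGL. The count of higher genes, here and in SFGL, thus follows in part from the filter. The sensor of cytosolic DNA *Aim2* was higher by 1.91 ± 0.20 and *Nlrp3* by 0.99 ± 0.24, whereas *Ddx58* (RIG-I), a sensor of viral RNA, was lower at -1.23 ± 0.14 and *Nod1* at -0.88 ± 0.13. *Ifih1* (MDA5), which like TLR3 senses double-stranded RNA, was also lower, at -0.88 ± 0.18. In the IL-1 receptor family 2 of 6 were higher, *Il18rap* at 3.88 ± 0.42 and *Il18r1* at 1.03 ± 0.19, and 2 lower, *Il1r1* at -1.11 ± 0.21 and *Il1rl2* at -0.62 ± 0.14. In SFGL the counts of higher and lower genes were 2 and 3 for the accessory proteins, 3 and 0 for the adaptors, 4 and 1 for the kinases and ligases, 2 and 2 for NF-kB, 5 and 0 for the negative regulators, 4 and 0 for the cytokines, 5 and 3 for other receptors and 2 and 2 for the IL-1 receptor family, and in the libraries labelled FGL 0 genes of any list were called. Over all genes tested, 27.8% were called higher and 30.9% lower in SFGL, and 0.016% in either direction in the libraries labelled FGL. The leukocyte and fibroblast markers moved with the libraries of SL and SFGL, and their part in the differences of the lists was not tested.

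Over the 5 stages and 8 MEF libraries, the pattern of a member was compared with that of 11907 genes by Pearson's r of log2(FPKM + 1), centred within each table, as a description over 13 values in which MAC weighs most. The 2 genes most like *Tlr4* were *Unc93b1* (r = 0.995) and *Atg7* (0.991), and those most like *Tlr13* were *Cfp*, which encodes properdin (0.994), and *Slc11a1*, a metal transporter of phagosomes (0.994). *Tlr2* was most like *Prkch* and *Tlr13*, both at 0.990. *Tlr1* was nearest to *Aph1c* and *Cndp2* (0.994 and 0.993), *Tlr7* to *Ms4a6b* and *Naip5* (0.995 and 0.993) and *Tlr8* to *P2ry12* and *Nudt9* (0.993 and 0.986). *Tlr3* was nearest to *Nr3c1*, the glucocorticoid receptor, and *Fbxo4* (0.987 and 0.986), *Tlr6* to *Spg11* and *Mfsd3* (0.961 and 0.960), and *Tlr9*, whose pattern rests on MAC, to *Slc39a12* and *Trpc4* (0.999 and 0.998). Between the 9 members compared, *Tlr5* not among them, r was lowest for *Tlr3* and *Tlr2*, at 0.222, and for *Tlr3* and *Tlr13*, at 0.263, 2 pairs that were high together in MAC and opposite in the MEFs.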

How the data were processed

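RNA-seq values were used as the authors deposited them, in FPKM. For the stages, the study describes single-end SOLiD reads of ribosome-depleted total RNA, aligned to mm10, with unique reads kept, duplicates removed and Cufflinks run per transcription start, which pooled the replicates; the labels name TopHat and Cufflinks for the MEFs. For ESC, Bowtie and HOMER are named in the submitters' processing notes. Starts were summed per gene here. In the stage table, 1 further column, for HE, was not used, as no sample here is mapped to it. Stage changes were counted at 2-fold on log2(FPKM + 0.001) with at least 1 FPKM. MEFs were compared with limma 3.58.1 in R 4.3.3 (trend, two-sided, Benjamini-Hochberg over 12521 genes, threshold 0.05) on log2(FPKM + 1). limma and the stage counts were tested on simulated data. Named genes were the members and the 2 highest and 2 lowest of each list from HP to MAC with at least 1 FPKM. Up to 4 called in the MEFs per list and the 2 most alike were also named. *Il1b*, *Ifih1*, the low cytokines and, in the MEFs, *Myd88*, *Ly96*, *Clec7a* and *Clec4e* were added after their values were seen. Members and lists were chosen with earlier results of these data known. Figures used matplotlib 3.10.9.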

Additional observations from a re-analysis of the deposited data

How the results depend on the processing

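Of 155 alternative values for counts and shares, 142 stayed within 1.5 times the value given. Many of the 142 are counts of 0 that stayed 0, such as those of the steps before HP and of SFGL against SL. Such counts could hardly move, so the tally overstates how stable the results are. The 9 of 10 members higher in MAC became 7 with at least 3 FPKM and after scaling, and stayed 9 under the other alternatives. The 2 members higher in HP than in HB, the only ones that differed before MAC, became 4 with at least 0.3 FPKM (*Tlr7* and *Tlr13* were added), 0 with at least 3 FPKM, and 1, *Tlr4*, at 4-fold or with a pseudocount of 1, by construction of these limits. The share of *Tlr13* in MAC was 44.6% with the highest start of each gene and 19.8% when weighted by log2(FPKM + 1). Scaling, chosen for the pathway lists after the data were seen, left 4 of 7 accessory proteins, 2 of 4 adaptors, 3 of 6 kinases and ligases and 2 of 4 negative regulators higher in MAC. In the MEFs, 4 members called against uFIB became 6 without a filter, and leaving out 1 library gave 3 to 4 in SL, 3 to 4 in SFGL and 0 otherwise. The difference of *Tlr5* in SFGL, not called, ranged from -0.29 to 0.23 when 1 library was left out, above 0 without SFGL or uFIB of day 12 (0.23 and 0.17). Over all alternatives, *Tlr13* ranged from 2.03 to 4.97 in SL, *Tlr2* from 1.33 to 1.82 and *Tlr3* from -2.27 to -1.48. No paired analysis was possible because the numbered replicates are those of the stages, whose columns hold 1 pooled value each; in the MEFs no replicate number is shared, and day, which is, was a term of the fit. With the replicates pooled, a stage difference cannot be set against an error, and 1 library per MEF treatment and day leaves no spread between cultures.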
